A study of Mus musculus with 22 samples.

Results

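The regions described here are sites of the histone acetyltransferase p300 in mouse regulatory T (Treg) cells at which neither Foxp3 nor Ikaros was called. They were chosen as joined regions with a p300 peak in both wild-type (WT) p300 libraries, with peaks taken as shared from an overlap of 1 bp, that overlapped no peak of any WT Foxp3 or WT Ikaros library. Of 6868 p300 regions of both WT libraries, 48 (0.699%) met this rule. They lay on 19 chromosomes with at most 5 on one. Of the other 6820 regions, 6582 had Foxp3 and Ikaros, 143 had Ikaros without Foxp3 and 95 had Foxp3 without Ikaros. The regions were thus chosen by measured values, the WT peaks of p300, Foxp3 and Ikaros, so these are given as a description, and NFAT1, H3K27ac and position in the genome are the measures the choice did not use.

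p300 is a coactivator that does not read DNA sequence itself. It is brought to enhancers and promoters by transcription factors, and there it acetylates histones, among them lysine 27 of histone H3 (H3K27ac), a mark of active regulatory DNA. Foxp3 is the factor that defines Treg cells, Ikaros is a zinc finger factor of lymphocytes that recruits repressor and activator complexes, and NFAT1 (gene Nfatc2) is a factor that calcium signalling sends to the nucleus after T cell activation and that works with Foxp3 at some genes.

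The cells were primary Treg cells from mouse spleen and lymph nodes, stimulated for 1 h with a commercial cocktail. Crosslinking in 1% formaldehyde took 5 min where H3K27ac was mapped and 30 min for the factors. WT cells were compared with cells whose genotype is labelled IkE5-deletion (written IkE5), a name the labels do not expand, in a series whose title concerns the joint action of Ikzf1, the gene of Ikaros, and Foxp3. The strain and age of the mice, the promoter behind any Cre and the Ikaros protein left in IkE5 cells are not given in the labels. Chromatin immunoprecipitation sequencing (ChIP-seq) gave 18 peak lists, with 2 libraries per genotype for p300, Foxp3, NFAT1 and H3K27ac and 2 in WT for Ikaros. The other 4 of the 22 samples are inputs and were not analysed here.

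Of the 48 regions 2 overlapped a RefSeq promoter, taken as 250 bases before to 50 bases after a gene start. Both promoters are shown because they are where the p300 signal can be read against a sequence. The first belongs to Ctdsp1, which encodes a small phosphatase of the RNA polymerase II tail. Its promoter (GRCm38.p6, the assembly of mm10, chr1:74391359-74391658, plus strand) lay wholly inside the p300 region at chr1:74391209-74391760. The second belongs to Dusp22, which encodes a phosphatase that limits T cell receptor signalling. Its promoter (chr13:30659809-30660108, plus strand) had 182 of 300 bases inside the region at chr13:30659414-30659990, which ended 69 bp before the gene start. Both sequences run 5′ to 3′ and capitals mark each C followed by G.
Ctdsp1 promoter: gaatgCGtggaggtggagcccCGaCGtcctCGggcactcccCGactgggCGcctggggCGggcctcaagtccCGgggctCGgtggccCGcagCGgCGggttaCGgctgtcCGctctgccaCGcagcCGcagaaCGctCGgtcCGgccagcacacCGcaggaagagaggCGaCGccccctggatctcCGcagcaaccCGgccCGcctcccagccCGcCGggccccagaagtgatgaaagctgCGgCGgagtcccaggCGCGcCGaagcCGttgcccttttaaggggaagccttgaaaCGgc
Dusp22 promoter: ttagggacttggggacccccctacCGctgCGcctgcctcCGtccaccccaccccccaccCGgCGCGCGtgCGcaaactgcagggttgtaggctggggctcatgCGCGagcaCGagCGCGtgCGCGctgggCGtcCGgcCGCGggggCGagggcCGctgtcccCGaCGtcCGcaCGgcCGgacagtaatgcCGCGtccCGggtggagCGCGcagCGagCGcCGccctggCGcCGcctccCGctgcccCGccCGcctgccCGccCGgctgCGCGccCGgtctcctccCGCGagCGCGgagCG
Both were rich in G and C, at 72% with 34 such pairs for Ctdsp1 and 79% with 49 for Dusp22. The median of all 32851 promoters in the table was 52.7% with 7 pairs, and that of the 2010 promoters overlapping any WT p300 region was 59.7% with 21. None of 12 short motifs, searched on both strands, matched in either promoter. These letters included TGGGAA for Ikaros (in 25.6% of all promoters), TGTTTAC for forkhead factors (3.65%), GGAAA for NFAT (61.3%), CCGGAAG for ETS factors (8.86%) and TGACGTCA for the cyclic AMP response element (1.79%). A missing match says only that these letters are not in these windows.

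The p300 lists held 8775 to 11670 peaks, the WT Ikaros lists 22297 and 26641, and the Foxp3 lists 16526 to 21619. Read depth is unknown, because the lists give positions only. In the H3K27ac lists all 8 Treg marker genes had a peak in each of the 4 libraries, with 52.1% to 73.8% of the gene and its flanks covered in the median, and Foxp3 and Il2ra are among them. B cell markers had a peak at 11 or 12 of 14 genes with a median of 1.97% to 4.83% covered, myeloid markers at 6 or 7 of 12 with 1.08% to 4.72%, and CD8 T and natural killer cell markers at 5 to 9 of 10 with 1.88% to 5.84%.

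Most of the 48 regions were close to a Foxp3 or Ikaros peak without touching it. The gap to the nearest such WT peak ran from 2 bp to 295767 bp with a median of 712.5 bp. It was under 100 bp at 5 regions, under 500 bp at 21 and under 2 kb at 28, and it reached 2 kb at 20 and 10 kb at 2. A gap was thus shorter than 1 peak width, which is 500 bp, at 21 of the 48. The smallest gaps, which lay just inside the rule, were 2 bp in Selp, the gene of the adhesion molecule P-selectin, 16 bp beside Fam193b, 27 bp in Dlg4 (which encodes a synaptic scaffold protein), 61 bp in Gm34296 and 63 bp in Chn2, which encodes a GTPase-activating protein for Rac. Just outside it, the smallest overlaps were 39 bp near Kcnip1 (chr11:33939459-33940044), 53 bp (chr2:154613640-154614201) and 63 bp (chr13:111867308-111867817), and 11 of the other 6820 regions overlapped by 250 bp or less.

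The 5 most remote regions were of differing kinds. One at chr4:71817737-71818238, with no gene within 50 kb, lay 295767 bp from any Foxp3 or Ikaros peak and had no H3K27ac in any library. Its p300 peaks were in both WT lists and in neither IkE5 list. The region in Setbp1, which encodes a protein that binds the oncoprotein SET, was 45235 bp away and had p300 in all 4 lists. The region in Cilp2, which encodes a cartilage matrix protein, was 9938 bp away and also had p300 in all 4. The region at chr14:78448593-78449178 was 9794 bp away. The region at chr1:131003148-131003750 was 6720 bp away and has Il10, the gene of an inhibitory cytokine of Treg cells, and Mapkapk2 within 50 kb.

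The number of regions depended on single libraries. Without the first or the second WT p300 list, the rule left 250 and 491 peaks of the remaining list, and it left 129 regions without the first WT Foxp3 list and 120 without the first WT Ikaros list. When a region was left out only where both lists of a factor had a peak, 1174 of the 6868 remained.

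**Figure D1:**
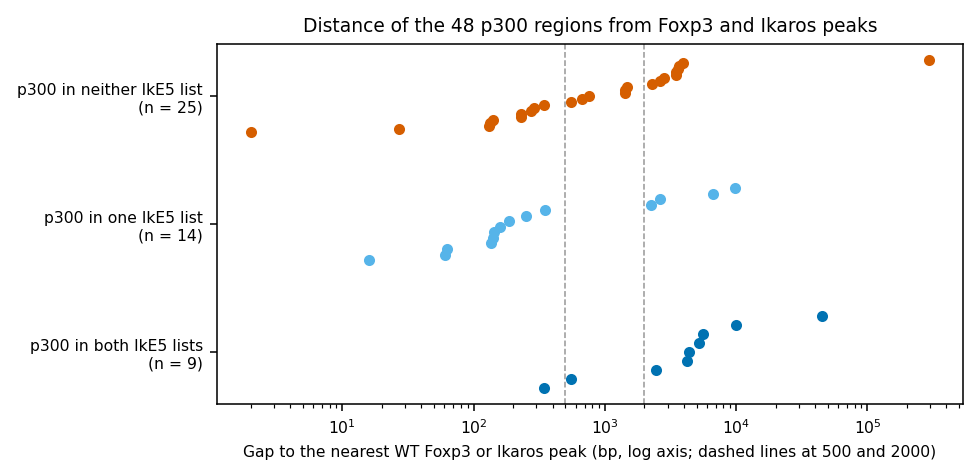
Gap from each of the 48 p300 regions to the nearest WT Foxp3 or Ikaros peak, in bp on a log axis, in 3 rows by whether the IkE5 p300 lists also had a peak, with dashed lines at 500 and 2000 bp; each point is a region, and its height within a row only separates points. Of the 9 regions with p300 in both IkE5 lists 7 had a gap of 2 kb or more, against 4 of 14 with p300 in one and 9 of 25 with p300 in neither.

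In IkE5 cells most of these regions had p300 in one list or in none. A p300 peak was present at 16 of 48 (33.3%, 95% Wilson interval 21.7 to 47.5) in the first and at 16 in the second IkE5 library, against 77.4% and 69.3% of the other 6820. In both IkE5 lists there was p300 at 9 regions (18.8%, against 61.4% of all 6868), in one at 14 and in neither at 25 (52.1%, interval 38.3 to 65.5, against 15.2% of all 6868). The share with p300 in neither was 45.3% at regions with Foxp3 without Ikaros and 29.4% at those with Ikaros without Foxp3. Presence in WT is fixed by the choice, so no test of the genotypes was made on p300, and these intervals cover counting error only.

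The same choice was also made in the other direction. Of 6474 p300 regions of both IkE5 libraries, 62 overlapped no IkE5 Foxp3 and no WT Ikaros peak. Of these, 46 (74.2%) had p300 in neither WT list, against 17.2% of the 6474. In both directions the share without p300 in the other genotype was above that of all p300 regions.

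Peaks of single lists were followed in the other lists as well. In the first WT p300 library 491 peaks (4.29%) overlapped no WT Foxp3 or Ikaros peak, and 11.0% of them recurred in the second WT library, 12.4% in the first IkE5 and 13.0% in the second IkE5 library. The 10966 peaks of that library with Foxp3 or Ikaros recurred at 62.2%, 63.3% and 55.2%. In the second WT library there were 250 such peaks, which recurred at 19.6% in the first WT library, 14.4% in the first IkE5 and 13.2% in the second IkE5 library. Its 8525 peaks with Foxp3 or Ikaros recurred at 80.1%, 69.9% and 60.2%. Peaks without Foxp3 or Ikaros thus recurred at 11.0% to 19.6% within WT and 12.4% to 14.4% between genotypes, and the ranges overlap. In the IkE5 libraries, 658 and 410 peaks overlapped no IkE5 Foxp3 and no WT Ikaros peak, and they recurred at 10.5% and 17.6% in the other IkE5 library and at 5.78% to 12.2% in the WT libraries. Recurrence in single lists was examined after the counts above were known.

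**Figure D2:**
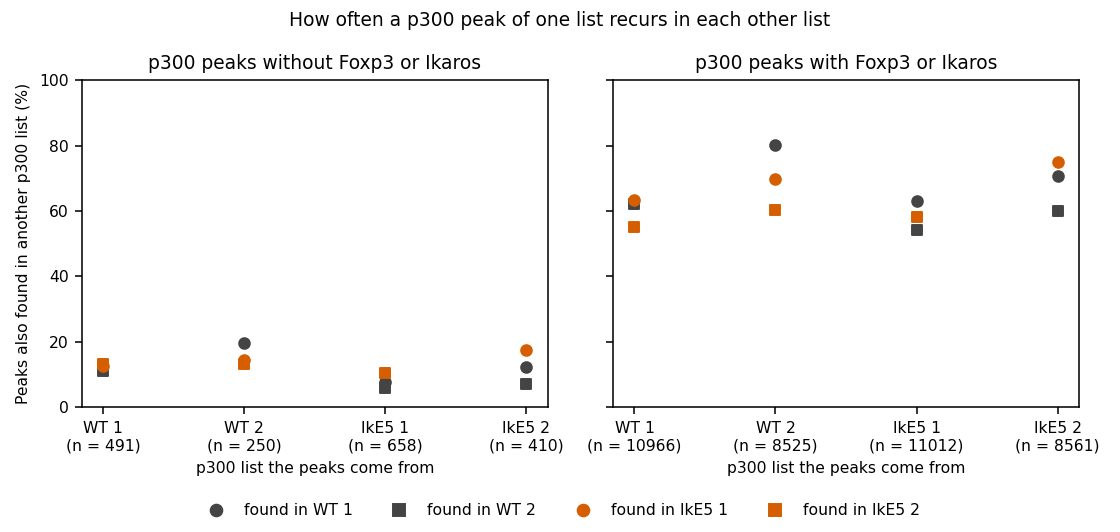
Share of the p300 peaks of each library (x axis, with the number of peaks) that were also found in each other p300 library (y axis, percent), for peaks without (left) and with (right) Foxp3 or Ikaros of the same genotype, WT Ikaros serving for both; colours mark the genotype and shapes the number of the library searched. All points on the left lie between 5.78% and 19.6%, and those on the right between 54.1% and 80.1%.

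The 9 regions with p300 in all 4 libraries lay in Raph1, Sv2c, Slc39a14, Setbp1, Gbp3, Bbc3, Cyfip1 and Cilp2 and at chr17:5803203-5803742. Bbc3 encodes the cell death protein PUMA, Cyfip1 a subunit of the complex that starts actin branching, Raph1 an actin regulator, Slc39a14 a zinc and iron transporter and Gbp3 an interferon-induced GTPase. At the Bbc3 region (chr7:16312811-16313312) H3K27ac was present in all 4 libraries and NFAT1 in the first WT library only. At the Raph1 region (chr1:60488614-60489130) H3K27ac was absent from all 4 lists and NFAT1 was present in the first WT and both IkE5 lists. The regions with p300 in every library were therefore not alike in their other peaks.

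**Figure D3:**
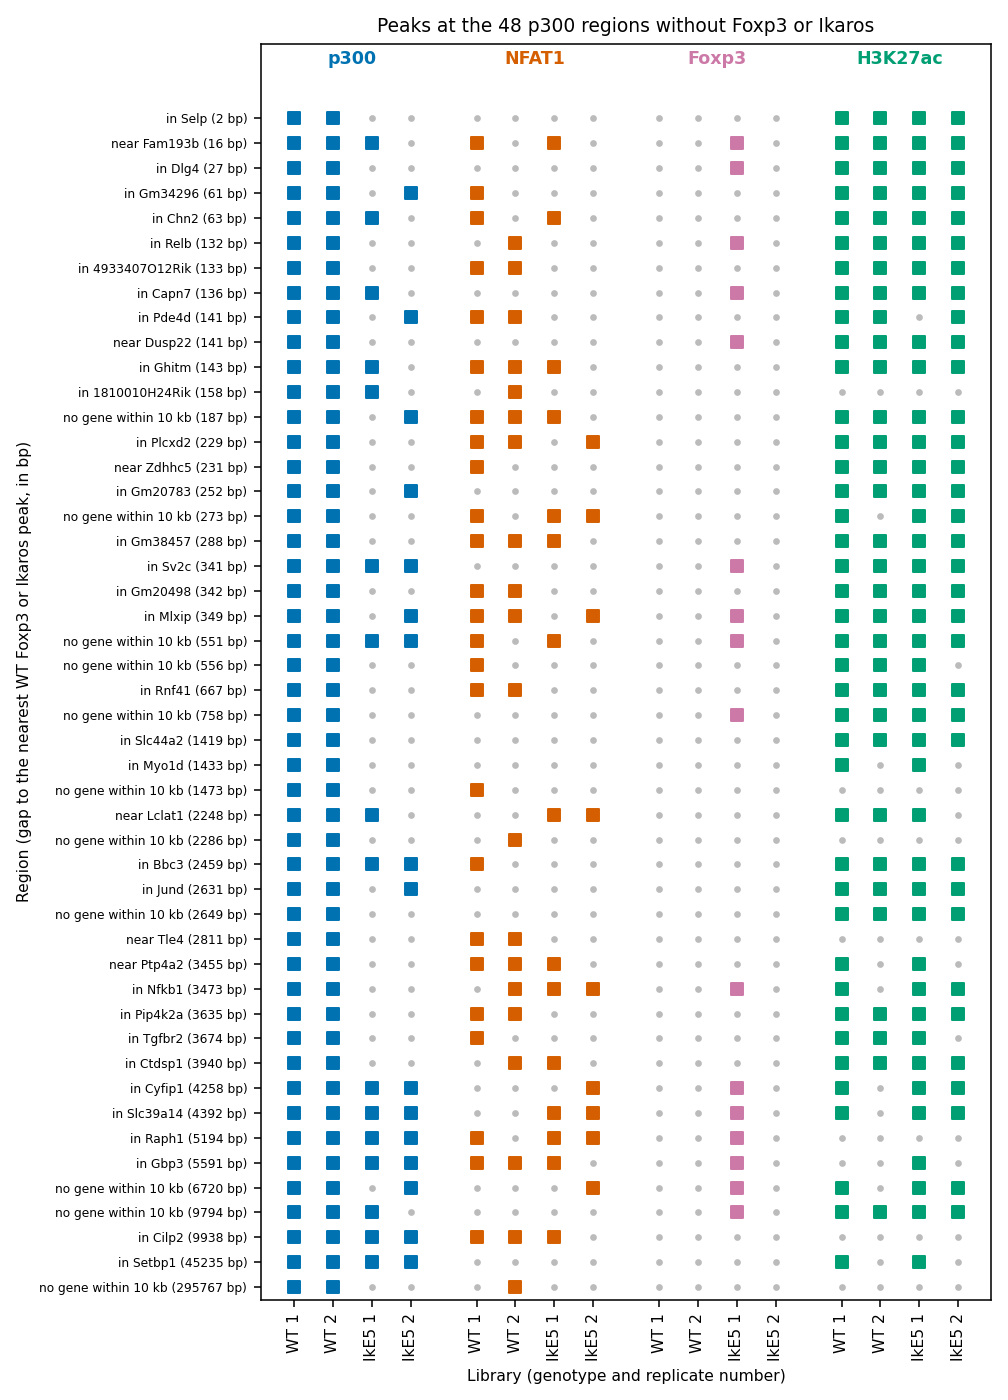
Peaks of p300, NFAT1, Foxp3 and H3K27ac (columns, 4 libraries each) at each of the 48 regions (rows, in order of the gap to the nearest WT Foxp3 or Ikaros peak, given in bp after the gene); a filled square is a peak and a dot is none. WT p300 and WT Foxp3 are fixed by the choice, all 16 Foxp3 squares are in the first IkE5 library, and H3K27ac squares fill most rows of the upper part.

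Foxp3 peaks appeared at 16 of the 48 regions (33.3%, interval 21.7 to 47.5) in the first IkE5 library and at 0 of 48 in the second, which allows a share of up to 6.25%. The second IkE5 list was the shorter of the pair, with 17265 peaks against 21619. At least one IkE5 Foxp3 list had a peak at 92.9% of all 6868 regions. At regions with Ikaros without Foxp3 in WT, which also start at 0 in WT by definition, the shares were 36.4% and 18.2%. Foxp3 is at 0 in WT by the choice, so IkE5 values can only be equal or higher and were not tested. Without the first IkE5 Foxp3 list the share is 0, and among the 491 peaks left without the second WT p300 list it was 20.2%. In the choice made in IkE5, 14 of 62 regions had a Foxp3 peak in the first and 0 in the second WT library, so the split between first and second libraries was alike in both directions.

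The 16 regions with Foxp3 in the first IkE5 library included Nfkb1, Relb, Gbp3, Slc39a14, Cyfip1, Raph1, Sv2c, Dusp22 and the region with Il10 within 50 kb. Of them 6 had p300 in both IkE5 lists, 5 in one and 5 in neither. Of the 9 regions with p300 in both IkE5 lists, 6 thus had Foxp3 in the first IkE5 list, against 5 of 25 with p300 in neither. This split rests on the first Foxp3 list alone, was not tested and was not made at the other p300 regions. A gap of 2 kb or more to the WT peaks was found for 7 of the 16, so a Foxp3 peak in IkE5 was not always next to one of WT.

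NFAT1, which the choice did not use, had lower shares in both IkE5 libraries than in both WT libraries, at these as at the other p300 regions, in a design too small for the difference to pass 0.05. A peak was found at 25 of 48 (52.1%) in the first and 20 (41.7%) in the second WT library, and at 15 (31.2%) and 9 (18.8%) in the IkE5 libraries. The groups did not overlap. The mean share was 46.9% ± 7.37 (SD, n = 2) for WT and 25% ± 8.84 (SD, n = 2) for IkE5, a difference of -21.9 percentage points with a 2-sided exact permutation p of 0.333, the smallest that 2 against 2 libraries can give. At the other 6820 regions the shares were 68.3% and 67.4% in WT and 42.3% and 32.5% in IkE5, a difference of -30.5 points (exact permutation p = 0.333). IkE5 was at 53.3% of WT for the 48 regions and at 55.1% for the others, and the gap between both sets changed by 8.59 points (exact permutation p = 0.333). NFAT1 shares below those of the 6820 were not particular to the 48. Regions with Ikaros without Foxp3 had 47.6% and 48.3% in WT and 28.7% and 18.9% in IkE5. Those with Foxp3 without Ikaros had 53.7% and 51.6% in WT and 33.7% in each IkE5 library. The NFAT1 lists were shorter as a whole in IkE5, with 4908 and 3435 peaks against 7825 and 6850, and the part of this in the difference was not tested.

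The size and direction depended on how the regions were chosen. At the 20 regions with a gap of 2 kb or more the NFAT1 difference was -7.5 points and the genotypes were no longer separate (exact permutation p = 0.667). At the 62 regions chosen in IkE5 the NFAT1 share was 4.03 points higher in IkE5 (exact permutation p = 1). Among the peaks left without the first or second WT p300 list, the difference in NFAT1 share was -7.8 and -11.9 points.

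Region by region, NFAT1 was in both WT lists at 14 of 48 (29.2%, against 58.4% of all 6868) and in all 4 lists at 0 of 48, which allows up to 6.25% (25.3% of all 6868). It was in no list at 13 (27.1%, against 20.4%), in both WT and neither IkE5 list at 6 (12.5%, against 19.9%) and in both IkE5 and neither WT list at 2 (4.17%, against 0.888%). In the same order, regions with Foxp3 without Ikaros had 41.1%, 17.9%, 29.5%, 12.6% and 1.05%. Those with Ikaros without Foxp3 had 36.4%, 10.5%, 35.7%, 16.1% and 2.10%. The direction of each departure from all 6868 was thus not particular to the 48. Without the second WT NFAT1 list the share is that of the first WT list alone, 52.1%. NFAT1 was in both WT lists at 8% and 12% of the peaks left without the first or second WT p300 list.

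At 5 regions NFAT1 was in both WT lists and neither p300 nor NFAT1 was in any IkE5 list. They lay in Rnf41 (chr10:128438892-128439464), which encodes a ubiquitin ligase, in Cox16 (chr12:81483839-81484378), which encodes an assembly factor of cytochrome c oxidase, and in Pip4k2a (chr2:18942910-18943446), a phosphoinositide kinase gene. The others lay 3.22 kb from Tle4 (chr19:14601405-14601909), a corepressor gene, and beside Hnrnpll (chr17:80062700-80063248), which encodes an RNA-binding protein that controls splicing of the phosphatase CD45. H3K27ac was present in all 4 libraries at 4 of them and in none at the Tle4 region. The share of all 6868 regions with this combination was not counted, so these 5 are named as a description only. Taken singly, NFAT1 in both WT and neither IkE5 list was found at 12.5% of the 48 and 19.9% of all 6868. For p300 in neither IkE5 list the shares were 52.1% and 15.2%. NFAT1 went the other way, in both IkE5 and neither WT list, at the Slc39a14 region and at one near Lclat1 (chr17:73250586-73251094), both named after their values were seen.

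Among the 14 regions with NFAT1 in both WT lists, 8 (57.1%, interval 32.6 to 78.6) had p300 in neither IkE5 list, and among the 17 with NFAT1 in no WT list, 7 (41.2%, interval 21.6 to 64.0) did. At the other 6820 regions the order was the reverse, with 7.33% of 3996 and 28.3% of 1560. The intervals of the 48 regions overlap.

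**Figure D4:**
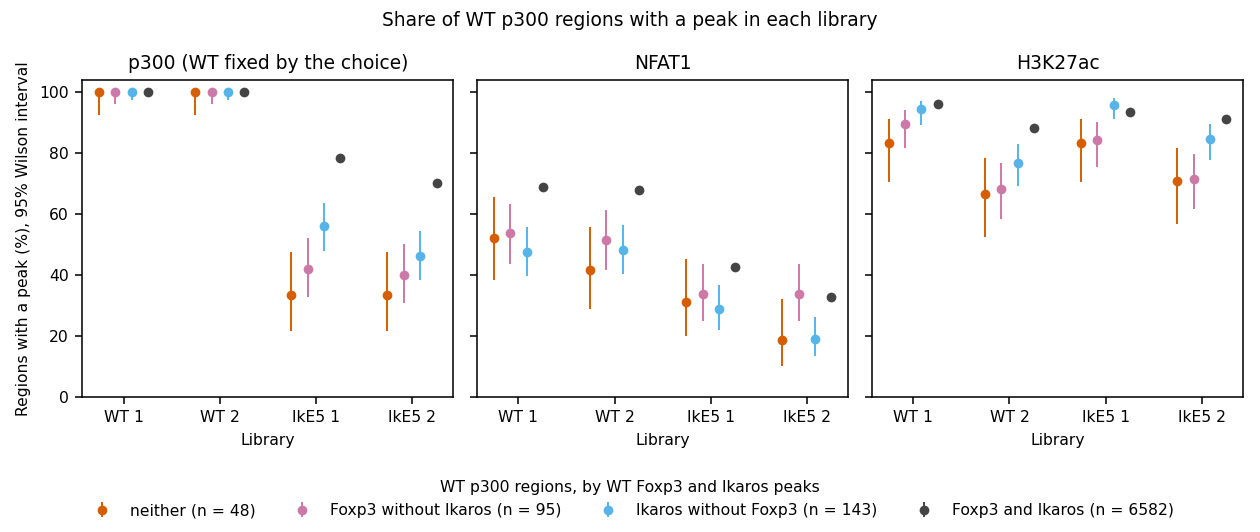
Share of WT p300 regions with a peak (y axis, percent) in each library (x axis) of p300, NFAT1 and H3K27ac, in 4 classes by WT Foxp3 and Ikaros; points are shares and bars are 95% Wilson intervals, which cover counting error only. The 48 regions with neither had p300 at 33.3% in both IkE5 libraries, NFAT1 at 52.1% and 41.7% in WT and 31.2% and 18.8% in IkE5, and H3K27ac between 66.7% and 83.3%.

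Most of the 48 regions lay in acetylated chromatin in both genotypes. An H3K27ac peak overlapped 83.3% of them in the first and 66.7% in the second WT library, and 83.3% in the first and 70.8% in the second IkE5 library. The spread within a genotype was wider than the difference between genotypes, which was 2.08 points (75% ± 11.8 for WT and 77.1% ± 8.84 for IkE5, SD with n = 2 libraries, exact permutation p = 1). At the 62 regions chosen in IkE5 it was 22.6 points (exact permutation p = 0.333), and at the 20 with a gap of 2 kb or more 7.5 points (exact permutation p = 0.667). For the 48 it became -6.25 points without the second WT and -4.17 without the first IkE5 H3K27ac library. The other 6820 regions had 96.1% and 87.7% in WT and 93.5% and 90.7% in IkE5 (exact permutation p = 1). H3K27ac was in all 4 lists at 28 of the 48 (58.3%, against 82.4% of all 6868) and in none at 7 (14.6%, against 1.95%). At regions with Foxp3 without Ikaros it was in all 4 lists at 61.1% and in none at 6.32%. At those with Ikaros without Foxp3 the shares were 72% and 2.8%. A share in all 4 lists below that of all 6868 was thus not particular to the 48. Neither pattern confined to a genotype was found, with 0 of 48 in both WT and neither IkE5 list (1.18% of all 6868) and 0 of 48 in the reverse (0.641%).

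Of the 48, 34 (70.8%, against 88.9% of all 6868) lay in a joined H3K27ac region with peaks of both WT libraries. The same held for 74.7% of regions with Foxp3 without Ikaros and 81.1% of those with Ikaros without Foxp3. For 29 of the 34 (60.4% of the 48) the joined region held a Foxp3 or Ikaros peak elsewhere. This was so for 88.8% of all 6868, nearly all of which have such a peak by their class. The median width of those 34 regions was 3.69 kb. With the gap under 2 kb, 22 of 28 regions had H3K27ac in all 4 libraries and 2 in none. With a gap of 2 kb or more, 6 of 20 had it in all 4 and 5 in none. The 7 regions without H3K27ac in any list were those in Raph1, 1810010H24Rik and Cilp2, near Tle4, and at chr2:170249744-170250333, chr4:71817737-71818238 and chr8:22726889-22727492.

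The amount of H3K27ac was measured as the length covered by peaks in the 10 kb centred on the region. The median over the 48 regions was 4.04 and 2.70 kb for WT and 4.26 and 3.58 kb for IkE5. Over all 6868 it was 3.62 and 2.43 kb for WT and 3.09 and 2.77 kb for IkE5, so the median of the 48 was higher in each library, although a smaller share of the 48 overlapped a peak. This was not particular to the 48. Regions with Foxp3 without Ikaros had 5.10 and 2.88 kb for WT and 4.71 and 3.56 kb for IkE5. Those with Ikaros without Foxp3 had 3.91 and 2.345 kb for WT and 3.70 and 2.78 kb for IkE5. The widest mean coverage was in Klf3 (chr5:64806819-64807318), the gene of a Krüppel-like repressor. It had 9.75 and 9.82 kb in WT and 9.93 and 9.92 kb in IkE5. The Jund region (chr8:70698456-70699034) had 8.89, 7.58, 8.48 and 8.17 kb in the same order. The Klf3 window was nearly filled in every library, and the Jund window had more than 7 kb covered in each.

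With limma on log2(covered length scaled to the library total + 1000 bp), 44 of the 48 regions could be tested and, fitted on genotype alone, 0 passed a Benjamini-Hochberg adjusted p of 0.05, as did 0 of all 16765 regions (0%). At an unadjusted p under 0.05 there were 6 of 44, 3 lower and 3 higher in IkE5, beside 11.6% of the 16765. The median log2 difference was -0.07 over the 44 and -0.01 over all. The scaled values of the genotypes did not overlap at 14 of the 44, 8 lower and 6 higher in IkE5, beside 38.1% of all 16765 (18.1% lower, 20% higher). The share among the 44 was thus no higher than over all regions tested, and the values named next are descriptions. The 4 regions under the minimum were those in Raph1, Setbp1 and Cilp2 and the one at chr4:71817737-71818238.

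Among the 14 regions whose scaled values did not overlap, the 5 with the largest lower differences were as follows. Lengths in kb here and in the next paragraph are before scaling unless called scaled, and the log2 differences are from scaled values. In Tgfbr2 (chr9:116137549-116138064), which encodes a receptor chain for transforming growth factor beta, the window had 7.48 and 6.02 kb in WT and 2.59 and 1.91 kb in IkE5. The log2 difference was -1.28 ± 0.21 (SE, limma adjusted p = 0.144), and p300 was absent from both IkE5 lists there. At chr8:22726889-22727492, with Ikbkb and Plat within 50 kb, the window had 3.18 and 2.08 kb in WT and 0 and 0.5 kb in IkE5 (log2 difference -1.54 ± 0.32, limma adjusted p = 0.175). The p300 region itself overlapped no H3K27ac peak of any library, so the covered length lay elsewhere in that window. Ikbkb encodes a kinase that activates NF-kappaB. Chn2 (chr6:54120158-54120754) had 3.43 and 3.64 against 1.63 and 1.81 kb (-0.76 ± 0.25, limma adjusted p = 0.333). The differences at Ctdsp1 and at the region near Zdhhc5, a palmitoyltransferase gene, and Clp1 were -0.28 and -0.26.

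Among the same 14, the 5 with the largest higher differences included 4 with p300 in both IkE5 lists. The region with Il10 within 50 kb had a log2 difference of 0.75, but its libraries overlapped, with 9.57 and 1.77 kb in WT and 9.09 and 7.16 kb in IkE5. In Slc39a14 (chr14:70336030-70336608) the window had 3.69 and 0.516 kb in WT and 9.07 and 6.05 kb in IkE5 (log2 difference 1.70 ± 0.44, limma adjusted p = 0.253). Here both IkE5 libraries had p300 and NFAT1 and the first had Foxp3. In Cyfip1 (chr7:55846802-55847317) it had 4.11 and 1.07 against 6.20 and 4.14 kb (0.91 ± 0.35, limma adjusted p = 0.403). In Gbp3 (chr3:142566375-142566885) it had 2.55 and 0.997 against 4.61 and 2.52 kb (0.74 ± 0.28, limma adjusted p = 0.406). These Gbp3 values overlap before scaling, and the scaled ones, 2.15 and 1.23 against 4.26 and 2.74 kb, do not. Sv2c, which encodes a synaptic vesicle protein, and the region at chrX:42344167-42344771 had differences of 0.62 and 0.57. Slc39a14, Cyfip1, Gbp3 and Sv2c had p300 in all 4 lists, and the region on chromosome X in the second IkE5 list only. The region at chr17:5803203-5803742 also had p300 in all 4 lists, but it was among those of the 14 lower in IkE5 (log2 difference -0.106).

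**Figure D5:**
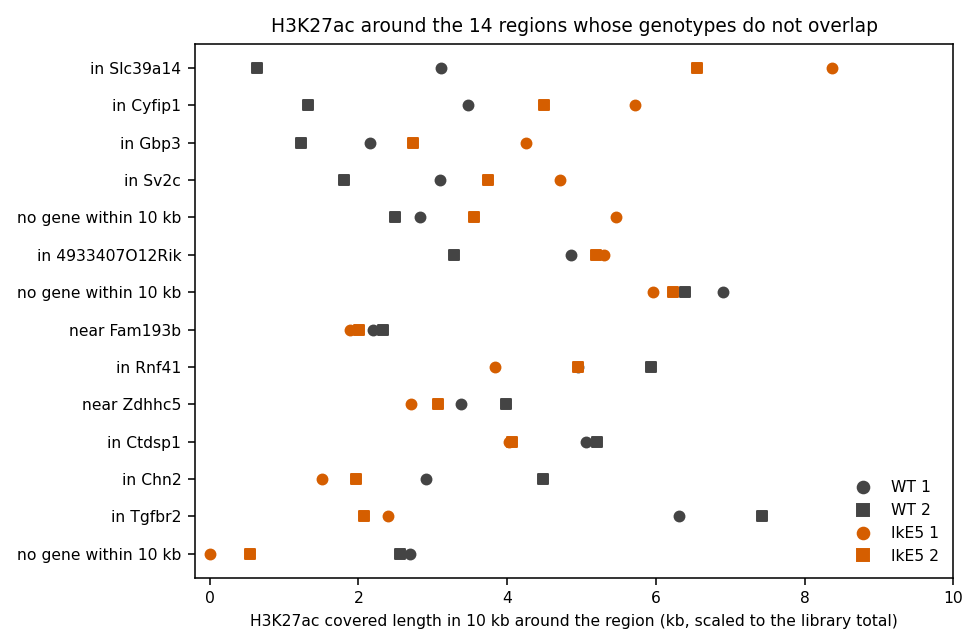
H3K27ac covered length in the 10 kb around the region (x axis, kb, scaled to the library total) for the 14 regions at which the 2 WT libraries (grey) and the 2 IkE5 libraries (orange) do not overlap; circles are first and squares second libraries, in order of the log2 difference. Slc39a14 is at the top (log2 difference 1.70) and Tgfbr2 and the region on chromosome 8 are at the bottom, and none of the 14 passed the adjusted limma test fitted on genotype alone.

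Most of the 48 regions lay in or near genes, and few at the RefSeq promoters used. A protein-coding gene was overlapped by 31 (64.6%, others 61.7%) and 37 lay in a gene or within 10 kb (77.1%, others 75.4%). Either end of a gene was at most 2 kb away for 14 (29.2%, others 34.1%). A RefSeq promoter overlapped 2 (4.17%, interval 1.15 to 14), against 22.2% of the others. It overlapped 12.6% of the regions with Ikaros without Foxp3 and 2.11% of those with Foxp3 without Ikaros, so a low share was not particular to the 48. The gene table has no strand, so both ends count. The RefSeq promoters covered 79.9% of 21896 protein-coding genes, so a region at a gene start outside them is not counted. Of the 14 near a gene end, 12 had a gap under 2 kb to a Foxp3 or Ikaros peak and 2 a longer one. The nearest other WT p300 region was 15.6 kb away in the median, against 29.6 kb for the others. It was 17.9 kb for regions with Foxp3 without Ikaros and 24.2 kb for those with Ikaros without Foxp3. A median below that of the others was thus not particular to the 48.

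Of 5145 genes with a p300 region of both WT lists in the gene or within 10 kb, 52 (1.01%) had one of the 48. Each had a single one, and for 27 it was the only p300 region. NF-kappaB genes had 2 of 16 (Nfkb1 and Relb), immediate early genes 1 of 17 (Jund) and interferon-induced genes 1 of 14 (Gbp3). The Treg signature and T cell receptor and calcium signalling genes had 0 of 25 each, naive and quiescence genes 0 of 12, effector cytokines 0 of 7, the Ikaros family and corepressors 0 of 14, and acetyltransferases and bromodomain coactivators 0 of 11. Ribosomal protein genes had 0 of 16, housekeeping genes 0 of 5, Treg markers 0 of 7, B cell markers 0 of 3 and myeloid markers 0 of 1, and no CD8 T or natural killer cell marker had a p300 region. Counts this small sit on a background of 1.01% and say nothing particular about a list. Within 50 kb the listed genes Il10, Ppp3cc, Gatad2a, Gbp5, Ikbkb and Gzmb also had one.

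The listed genes differed in their peaks. The region in Nfkb1 (chr3:135661707-135662225), the gene of the NF-kappaB subunit p50, lay 3473 bp from an Ikaros peak. It had p300 in neither IkE5 list and Foxp3 in the first, NFAT1 in the second WT and both IkE5 lists, and H3K27ac in the first WT and both IkE5 lists. The region at chr7:19629437-19629942 overlapped an end of Relb, the gene of an NF-kappaB subunit of the alternative pathway, and lay 132 bp from a Foxp3 peak. The gene ended at 19629438, so most of the region lay outside it. The Relb region overlapped no promoter of the set used. It had p300 in neither IkE5 list, NFAT1 in the second WT list only, Foxp3 in the first IkE5 list and H3K27ac in all 4. The region in Jund, the gene of an AP-1 subunit, had p300 in the second IkE5 list, H3K27ac in all 4 and neither NFAT1 nor Foxp3 in any. The region in Gbp3 had p300 in all 4, NFAT1 in both WT and the first IkE5 lists, and H3K27ac in the first IkE5 list only.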

How the data were processed

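Peak lists of p300, Foxp3, Ikaros, NFAT1 and H3K27ac from WT and IkE5 mouse Treg cells were used, each as the authors deposited it, with chromosome, start and end and no score. Tools named in the submitters' processing notes are Bowtie2, MACS2, HOMER, bedtools and FastQC, with mm10 as the build. The caller's settings are not given in the sources used here, so peaks of all lists were taken as they stand. Those of p300 and the factors were 500 bp wide. Read depth is unknown, and a missing peak can lie just under the threshold. The regions and gene lists were chosen with earlier results of these data known.

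Peaks of the WT p300 lists were joined at 1 bp of overlap, and the other targets were read as overlap of at least 1 bp. Shares have Wilson 95% intervals, and for 0 the limit is 3 counts. Library shares were compared by exact permutation tests. H3K27ac covered length in 10 kb, over regions with a p300 peak in any p300 list and a mean of at least 500 bp, was scaled to the library total and tested with limma 3.58.1 (R 4.3.3, trended prior, pseudocount 1000 bp, Benjamini-Hochberg at 0.05). On simulated data with the spread of these libraries the fit recovered none of the changes put in, and with an even spread all of them, so an absence of calls says little about the regions. Nothing in the labels says that libraries came from separate animals, so p-values measure the spread between libraries. Genes, promoters and sequences are from RefSeq (GRCm38.p6), whose promoter table covered 79.9% of 21896 protein-coding genes, and 307 of 310 listed genes were found. Named are listed genes with a region, the 5 smallest and 5 largest gaps, the 5 largest H3K27ac differences per direction without overlap, and regions with NFAT1 in both WT lists and neither p300 nor NFAT1 in IkE5; the rule's other parts gave none, except that regions with p300 in every list and 1 region near Lclat1 were added after their values were seen.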

Additional observations from a re-analysis of the deposited data

How the results depend on the processing

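The number of regions was 27 with no Foxp3 or Ikaros peak within 500 bp, 20 within 2000 bp and 1174 when both lists of a factor were needed to leave one out, and it ranged from 49 to 491 without one library. With 2000 bp, 10.0% lay within 2 kb of a gene end, and the differences were -7.5 points for NFAT1 and 7.5 for H3K27ac. Choosing in IkE5 gave 9.68% near a gene end, 12.9% with NFAT1 in both lists of the choosing genotype, an NFAT1 difference of 4.03 points, which is reversed, an H3K27ac difference of 22.6 points, and 74.2% with p300 in neither list of the other genotype. Leaving out one library gave 8% to 52.1% for NFAT1 in every WT list left, 66.7% to 79.6% for p300 in no IkE5 list left, 0% to 33.3% for Foxp3 in IkE5, 22.2% to 34.8% near a gene end, -28.1 to -7.8 points for NFAT1, and -6.25 to 10.4 points for H3K27ac, where it was reversed at -6.25 and -4.17. The 52.1% and 66.7% come from leaving out a list of the target itself, so each rests on the single list left. The cause of these changes was not tested, beyond the fewer or more regions each setting leaves. Sharing of at least 250 bp gave 52 regions and moved no share past its counting interval, and the settings for Foxp3 in IkE5 were added after seeing the data. Genes with a region numbered 38 within 2 kb and 123 within 50 kb. The labels number the libraries of both genotypes alike but say nothing of a shared origin, so the replicate block stands here only. Deviations of same-numbered H3K27ac libraries correlated at r = 0.58 across 16765 regions, which are not independent. With the replicate block 3 of the 44 regions tested passed in limma. Tgfbr2 (limma adjusted p = 0.0293) and chr8:22726889-22727492 (limma adjusted p = 0.0372) were lower and Slc39a14 (limma adjusted p = 0.034) higher. In the limma settings without the block that kept 2 libraries per genotype, 0 passed. With the block, 288 of all 16765 regions were called lower and 425 higher, so such calls were not particular to the regions described here. The block left the NFAT1 difference at -21.9 (exact sign-flip p = 0.5, the smallest possible, within numbers -20.8 and -22.9) and that of H3K27ac at 2.08 (exact sign-flip p = 1).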
